A study of Mus musculus with 23 samples.

Results

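The mitosis and G2 phase genes described here are 39 genes that a cell transcribes on its way into and through division, taken by symbol from a list of names with no threshold on a measured value. All 39 were present in every table of counts and TPM used, among 35385 symbols. Poly(A) RNA of cultured mouse cells was sequenced in 23 libraries, which fall into 8 groups, and the series title places the work around the timing of oligodendrocyte maturation. There were 3 libraries of sorted oligodendrocyte progenitor cells (OPCs) and 3 of sorted oligodendrocytes (OLs). The other 17 libraries came from OPCs carrying a lentiviral CRISPR vector with a non-targeting guide (control), SOX6 guide 1 or SOX6 guide 2, which had been kept in puromycin (500 ng/mL) over 96 hours. After selection the cells spent 60 hours in growth medium (called OPCs, 3 control, 2 guide 1 and 3 guide 2 libraries) or in a medium that permits differentiation and lacks thyroid hormone (called OLs, 3 libraries for each guide). The Sox6 protein belongs to the SOX family of transcription factors.

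All cells came from OPCs made from epiblast stem cells of mouse strains 129SvEv and 129S1/SvImJ in culture, so none was taken from a brain. The growth protocol ties the line EpiSC5 to replicate 1 and the line 129O1 to replicate 2 of OPCs. The libraries of the SOX6 experiment carry letters in place of replicate numbers, so the stem cell line of a library was not used here. Targeted cells were selected pools, not clones, and their edits were not analysed here. The word OL follows the labels: the cultures in differentiation-permissive medium were not sorted, whereas the sorted OLs were magnetically sorted cells positive for the surface marker O1. The labels do not say that replicates were separate cultures, so the p-values measure the spread between these libraries, which may be technical.

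A cell that divides makes these messenger RNAs late in its cycle and clears them afterwards. The kinase Cdk1 with its cyclins starts mitosis, further kinases and motor proteins build the spindle and attach the chromosomes to it, the anaphase promoting complex marks proteins for destruction so that the chromosomes can part, and the cytokinesis proteins split the cell. OPCs are the main dividing cells of the lineage, and they leave the cell cycle when they become OLs. Transcription of this group is known to be set by the MuvB core, which binds the cell cycle genes homology region (letters TTTGAA or TTCGAA), and by NF-Y, which binds CCAAT boxes. The promoters of 6 members that hold TTTGAA or TTCGAA are shown as examples, and members without such letters are not shown. Whether these letters have a part in any change of level was not tested. The stretches run from 130 bases before to 20 bases after the RefSeq start of each gene in GRCm38.p6, 5′ to 3′ on the gene's strand, with both kinds of letters in capitals as read on either strand (TTTGAA with its reverse complement TTCAAA, the palindrome TTCGAA, and CCAAT with its reverse complement ATTGG).
Cdk1: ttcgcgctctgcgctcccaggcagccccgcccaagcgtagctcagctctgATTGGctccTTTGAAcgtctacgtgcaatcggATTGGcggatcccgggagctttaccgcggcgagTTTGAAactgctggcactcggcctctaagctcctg
Top2a: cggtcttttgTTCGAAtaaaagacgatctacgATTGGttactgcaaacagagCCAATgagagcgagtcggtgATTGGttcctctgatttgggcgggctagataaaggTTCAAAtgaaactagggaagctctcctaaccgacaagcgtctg
Mki67: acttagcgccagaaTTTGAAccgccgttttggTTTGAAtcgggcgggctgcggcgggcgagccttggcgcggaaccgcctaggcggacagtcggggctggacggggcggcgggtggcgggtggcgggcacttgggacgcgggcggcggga
Prc1: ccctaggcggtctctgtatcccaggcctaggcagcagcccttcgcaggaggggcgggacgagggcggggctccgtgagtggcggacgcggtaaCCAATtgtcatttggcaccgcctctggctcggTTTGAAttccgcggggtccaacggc
Racgap1: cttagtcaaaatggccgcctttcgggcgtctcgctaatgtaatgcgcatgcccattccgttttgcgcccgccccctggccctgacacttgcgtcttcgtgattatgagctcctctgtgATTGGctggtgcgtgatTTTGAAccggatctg
Kif23: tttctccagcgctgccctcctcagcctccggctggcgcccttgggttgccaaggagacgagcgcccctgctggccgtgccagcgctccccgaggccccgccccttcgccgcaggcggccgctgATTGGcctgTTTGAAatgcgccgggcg
These stretches lie for Cdk1 at chr10:69352893-69353042 on the minus strand, Top2a at chr11:99024170-99024319 on the minus strand, Mki67 at chr7:135716360-135716509 on the minus strand, Prc1 at chr7:80294321-80294470 on the plus strand, Racgap1 at chr15:99651637-99651786 on the minus strand and Kif23 at chr9:61946780-61946929 on the minus strand. Cdk1 holds TTTGAA 15 bases before its start with a further match 71 bases before it, and ATTGG 48 and 80 bases before it. In Prc1, TTTGAA starts 5 bases before the start of the gene and CCAAT 37 bases before it. Mki67 holds TTTGAA 98 and 116 bases before its start and no CCAAT in this stretch. Kif23 and Racgap1, partners in the centralspindlin complex of cytokinesis, hold ATTGG 7 and 12 bases before their starts and TTTGAA 2 and 5 bases after them.

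The 39 members lie on 16 chromosomes. RefSeq windows of 250 bases before to 50 bases after the start were at hand for 32 of them. TTTGAA or TTCGAA, read on either strand and counted whether or not a match shared a base with a CCAAT box, stood in 25 of the 32 windows (78.1%), against 19.2% of all 32851 windows. Of 24 genes of DNA replication, which act earlier in the cell cycle, 5 held it (20.8%). CCAAT stood in 24 of the members' windows (75%) against 37.4% of all windows and 14 of the 24 replication windows (58.3%). At least 2 CCAAT boxes stood in 17 members' windows (53.1%), against 11.7% of all and 33.3% of the replication windows. Both kinds of letters stood together in 21 members' windows (65.6%), against 7.52% of all and 16.7% of the replication windows. Within 100 bases before the start, TTTGAA or TTCGAA stood in 8 members' windows (25%), against 6.33% of all and 4.17% of the replication windows. Ccna2, Aurkb, Kif20a, Spc24, Tpx2, Pbk and Pimreg were not in the table of windows. A match is a description of the letters and not of binding.

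The libraries of the SOX6 experiment held between 13124580 and 18551822 estimated counts. Levels are given as TPM, which is scaled per transcript length, where genes are set beside each other. Scaled counts (CPM) are given where groups are compared, since the tests used counts. Sox6 stood at 161, 201 and 236 CPM of the library total in control OPCs, 91.5 and 77.2 with guide 1 and 74, 66.9 and 87.9 with guide 2. In OLs it stood at 428, 449 and 398 in controls, 262, 145 and 241 with guide 1 and 249, 248 and 251 with guide 2, so every targeted library lay below every control library of its medium. Mbp, myelin basic protein and a marker of OLs, lay between 16026 and 16652 TPM in sorted OLs, between 460.2 and 715 TPM in OL cultures and between 0.0459 and 2.37 TPM in OPCs, while Mog, a late myelin marker, reached at most 1.76 TPM in the 23 libraries. Mobp, another myelin gene, lay between 0.447 and 2.34 TPM in control OLs, between 28.3 and 38.1 TPM with guide 1 and between 28 and 52.3 TPM with guide 2. Summed OPC markers lay between 2744 and 3817 TPM in OL cultures, against 3341 and 3984 TPM in OPCs of the same experiment. In sorted OLs astrocyte markers summed to between 930.2 and 2804 TPM. Markers of microglia, pericytes or fibroblasts and pluripotent cells summed to at most 2.44 TPM in each of the 23 libraries.

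Taken as a sum, the 39 genes were high in OPCs and low in OLs. Their TPM summed to 3593, 3841 and 3218 in sorted OPCs and to 192, 131 and 138 in sorted OLs, which is 4.32% of the OPC mean. Control OPCs of the SOX6 experiment held 2590.3, 2386 and 2479 TPM and control OLs 441, 473 and 464 TPM, or 18.5% of the OPC mean. The sorted cells and the 2 media were deposited as separate tables, so the levels set across them are descriptive. With guide 1 the sum was 1894 and 1884 TPM in OPCs and 271, 259.6 and 273 TPM in OLs. With guide 2 it was 2571, 2546 and 2304 TPM in OPCs and 233, 264 and 233 TPM in OLs. The guide 1 OPCs lay below every control OPC library while the guide 2 OPCs overlapped the controls, and in OLs the libraries of both guides lay below all 3 controls. In bulk RNA, fewer dividing cells and less of these RNAs per cell cannot be told apart.

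**Figure D1:**
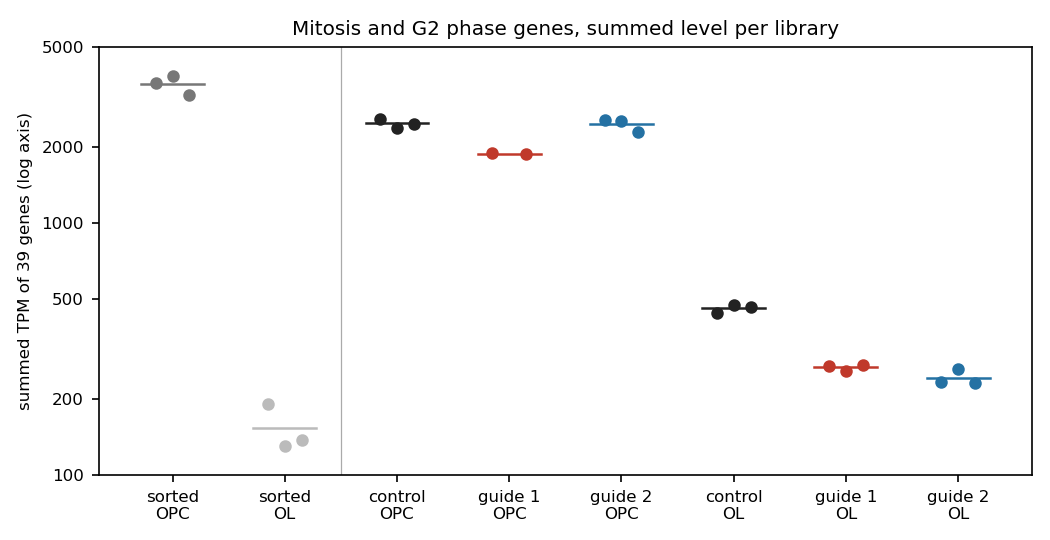
Summed TPM of the 39 genes in each library (points, log axis) with the mean of each group (line); the first 2 groups are sorted cells from a separate table. Sorted OLs sit between 131 and 192 TPM, control OLs between 441 and 473 TPM, and the OLs of both guides between 233 and 273 TPM.

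Among the roles, the level in control OPCs was led by Cdk1, the kinase that drives entry into mitosis, at 389.6, 333 and 292 TPM. Top2a, the topoisomerase that untangles sister DNA, stood at 291, 256 and 266 TPM. Cks2, a small subunit that docks on cyclin dependent kinases, stood at 169.7, 149 and 164 TPM. These are the abundant end of the group. The leaders of the other roles in control OPCs were Cenpa, the centromere's histone H3 variant (126, 116 and 93.8 TPM), Prc1, which bundles the microtubules of the central spindle (102, 92.5 and 104 TPM), Pbk, a kinase active in mitosis (95.9, 87.5 and 86.2 TPM), Tpx2, an activator of Aurora A on the spindle (83.8, 80.4 and 82.8 TPM), and Pttg1, the securin that holds separase back (25.9, 50.0 and 42.3 TPM). A few members were listed near 0 in all 23 libraries. Cdc20, the activator of the anaphase promoting complex, reached at most 3.29 TPM, Ube2c, the conjugating enzyme that works with that complex, at most 1.37 TPM, and the centromere motor Cenpe at most 3.81 TPM. Since dividing cells need all of them, their values are given only as listed. The filter on low counts left out Cenpe in OPCs and Cdc20, Ube2c and Cenpe in OLs and in the sorted cells.

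Sorted OLs differed from sorted OPCs in each of the 36 members tested. All 36 fell (limma on log2(TPM + 1), Benjamini-Hochberg adjustment, threshold 0.05), against 33.8% of all 11902 genes tested that fell and 26.3% that rose. Their median log2 change was -4.32 and ranged from -5.93 to -1.78, while the median of all genes was -0.14. Every sorted OL library lay below every sorted OPC library for the 36 members, as it did for 38% of all genes. A gene entered this test with 1 TPM in at least 3 of the 6 libraries, so it could enter through its OPC libraries alone. Members such as Kif23, Nusap1, Birc5, Nuf2 and Spc25 were under 1 TPM in most or all sorted OL libraries. The direction of their change was therefore largely set by the filter. The pseudocount of 1 makes the fall of genes that end near 0 look smaller than it was, and the depth behind the TPM values of the sorted cells is unknown.

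The 3 largest falls were those of Pimreg, Kif23 and Pbk. Pimreg stood at 222, 231 and 190.1 TPM in sorted OPCs and 4.98, 1.75 and 1.65 TPM in sorted OLs, a change of -5.93 ± 0.33 (SE; limma, adjusted p = 2.7e-05). Kif23, a kinesin of the central spindle, stood at 70.4, 106 and 54.6 TPM and 1.27, 0.649 and 0.731 TPM (-5.33 ± 0.26). For Pbk the levels were 139, 146 and 135 TPM and 5.62, 1.74 and 2.36 TPM (-5.16 ± 0.32). In each of these genes the highest OL library was library A, and it still lay far under the lowest OPC library. The 3 smallest falls were those of Spc24, Nusap1 and Birc5. Spc24, a subunit of the Ndc80 complex that ties kinetochores to microtubules, stood at 132, 137 and 121 TPM in sorted OPCs and kept 30.3, 39.5 and 42.1 TPM in sorted OLs (-1.78 ± 0.15; limma, adjusted p = 0.000133). Nusap1, a spindle protein, went from 8.43, 9.44 and 6.15 TPM to 0.63, 0.425 and 0.57 TPM (-2.53 ± 0.16). Birc5, the survivin subunit of the chromosomal passenger complex, went from 7.21, 8.91 and 7.16 TPM to 0.66, 0.392 and 0.372 TPM (-2.57 ± 0.13). Nusap1 and Birc5 had low levels in OPCs to begin with, whereas Spc24 had at least 121 TPM there and held the highest level of all members in every sorted OL library. The other subunits of its complex reached lower levels in sorted OLs: Ndc80 4.00, 2.27 and 1.97 TPM, Nuf2 0.736, 0.397 and 0.108 TPM and Spc25 0.627, 1.10 and 0 TPM.

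Among control cells of the SOX6 experiment, 34 of 38 members fell from OPCs to OLs and none rose (edgeR's quasi-likelihood test, Benjamini-Hochberg adjustment, threshold 0.05), against 21.6% of 14352 genes that fell and 21.4% that rose. The median log2 change was -2.58, with a range from -3.19 to -1.46, and the median over all genes was 0.02. Table and medium cannot be told apart in this contrast. Cdk1 fell most, from 215, 179 and 148 CPM to 18.8, 18.5 and 21.9 CPM (-3.19 ± 0.18, SE; edgeR, adjusted p = 2.44e-09). Plk1, a kinase that acts from mitotic entry to cytokinesis, went from 187, 155 and 158 CPM to 17.4, 22.4 and 18 CPM (-3.11 ± 0.14). Aurkb, the kinase of the chromosomal passenger complex, went from 123, 101 and 95.3 CPM to 12.5, 12.4 and 15.5 CPM (-2.98 ± 0.17). In all 3 every OL library lay below every OPC library. Spc24 again changed least of those that fell, from 80.9, 74.2 and 70.6 CPM to 26.9, 29.3 and 25.8 CPM (-1.46 ± 0.19; edgeR, adjusted p = 1.75e-05). The 4 members that did not pass were Ttk, Pttg1, Cdc20 and Ube2c. Ttk, a checkpoint kinase, stood at 8.14, 9.44 and 7.62 CPM in control OPCs and 1.97, 4.09 and 1.15 CPM in control OLs (-1.80 ± 0.70; edgeR, adjusted p = 0.0517). Pttg1 was uneven, at 3.35, 0.629 and 8.52 CPM in control OLs. Ube2c stood at 1.06, 1.38 and 0.285 CPM in control OPCs and 0.347, 0.314 and 0.286 CPM in control OLs, and Cdc20 was as low, so that no fold is given for them.

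By role, the summed level left in control OLs was 14.7% of control OPCs for Cdk1, its cyclins and Cks2, 17.7% for the other kinases, 19.5% for kinesins and spindle proteins, 23.4% for centromere and kinetochore proteins, 24.3% for cytokinesis proteins, 28.3% for the anaphase promoting complex group and 17.3% for the other chromosome genes. In sorted OLs these shares of sorted OPCs were 3.46%, 3.07%, 3.55%, 11.6%, 4.41%, 4.85% and 2.16%. The anaphase promoting complex group was uneven, with sums from 0.68 to 22 TPM in control OLs and from 0.199 to 4.44 TPM in sorted OLs. Its shares therefore do not rank it among the roles. The centromere and kinetochore share in sorted OLs was the highest of the roles, and Spc24 made up most of it. Across the 36 members tested in both, the log2 change in sorted cells and in control cultures correlated at Pearson's r = 0.73 and a Spearman rank correlation of 0.64, and at r = 0.64 without Spc24. This is a description across genes, whose points share their libraries and are not independent replicates.

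**Figure D2:**
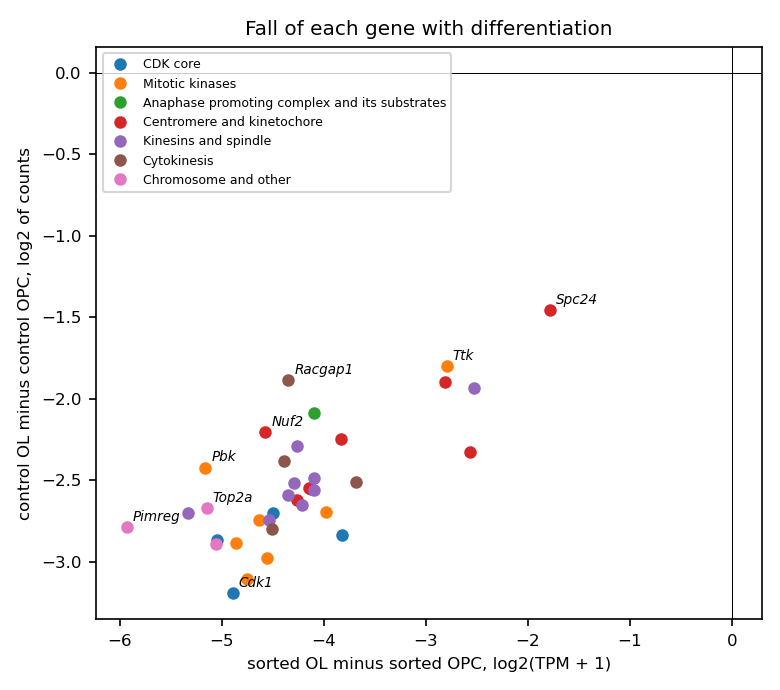
Log2 change of each of 36 members from sorted OPCs to sorted OLs (horizontal axis, log2(TPM + 1)) against that from control OPCs to control OLs (vertical axis, log2 of counts), coloured by role. All points lie below 0 on both axes, and Spc24 lies nearest to 0 at -1.78 and -1.46.

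In OPCs many members were lower with guide 1. Of 38 tested, 20 fell and none rose (edgeR's quasi-likelihood test, Benjamini-Hochberg adjustment over all genes), against 1.47% of all 13358 genes that fell and 1.32% that rose. The median log2 change over the members was -0.46, which is 0.72 times the control level. Of the members 31 had an unadjusted p under 0.05, against 2187 of all 13358 genes. Both guide 1 libraries lay below all 3 control libraries in 31 members, as they did in 16% of all genes. The fall was spread over the roles: 8 of 9 kinesins and spindle proteins fell, as did 3 of 4 cytokinesis proteins, 3 of 7 kinases, 3 of 7 centromere and kinetochore proteins, 2 of 5 members of the Cdk1 group, 1 of the 3 other chromosome genes and none of the 3 of the anaphase promoting complex group. The count rested on having both guide 1 libraries: without library A or without library B of guide 1 it was 0, and without guide 2 library A, which enters the shared spread, it was 12. Fitting both media together gave 9. Leaving out a guide 1 library leaves 1 library in that group, and calls over all genes dropped there as well. Over all genes the calls were 372 in the main test, 226 without guide 2 library A and 189 with both media together. The median log2 change over the members lay between -0.53 and -0.40 over 15 alternative settings. 

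Markers of other cell types moved with the guides in OPCs. Of the OL markers followed singly (Mbp, Mag, Mog, Cnp, Cldn11 and Mobp), Mbp was higher with guide 1 (2.37 ± 0.40, log2 ± SE) and with guide 2 (2.08 ± 0.38), and so was Cnp (0.62 ± 0.10 and 0.49 ± 0.09). Cldn11 did not pass (0.05 ± 0.49 and 0.26 ± 0.44), and Mag, Mog and Mobp were under the filter. Of 7 OPC markers 2 were lower with each guide, against 1.47% of all genes with guide 1 and 0.719% with guide 2. Summed OPC markers lay between 3341 and 3983 TPM in control OPCs. With guide 1 they lay between 3867 and 3984 TPM and with guide 2 between 3724 and 3843 TPM, so the sums overlapped. Summed astrocyte markers lay between 161 and 208 TPM in control OPCs, between 251 and 270.5 with guide 1 and between 236 and 254 with guide 2, so both guides lay above the controls, while 0 of 7 passed singly with guide 1 and 1 of 7, higher, with guide 2. Summed neuron markers lay between 28.4 and 33.2 TPM, between 18.5 and 20.3 and between 22 and 24.7 in the same order, below the controls with both guides, and of 6 singly 1 rose and 1 fell with guide 1 and 1 rose and 2 fell with guide 2. The part of these markers in the results was not tested.

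Spc25, another subunit of the Ndc80 complex, had the largest fall but few counts, at 5.88, 8.81 and 9.19 CPM in control OPCs, 2.93 and 3.62 CPM with guide 1 and 8.39, 8.08 and 7.26 CPM with guide 2. Its change with guide 1 was -1.28 ± 0.24 (SE; edgeR, adjusted p = 0.0338). Plk1 stood at 187, 155 and 158 CPM in control OPCs, 109 and 99.4 CPM with guide 1 and 166, 179 and 152 CPM with guide 2, a guide 1 change of -0.68 ± 0.10 (edgeR, adjusted p = 0.0155). In both genes the guide 1 libraries were the lowest of the 8, and the guide 2 libraries overlapped the controls.

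Aurka, the Aurora kinase of the spindle poles, stood at 84.6, 76.7 and 73.7 CPM in control OPCs, 49.8 and 51.9 CPM with guide 1 and 78.7, 82.2 and 72.1 CPM with guide 2 (-0.62 ± 0.08; edgeR, adjusted p = 0.0093). Bub1b, the checkpoint protein BubR1, stood at 165, 142 and 137 CPM in control OPCs, 106 and 96.8 CPM with guide 1 and 149, 152 and 145 CPM with guide 2 (-0.55 ± 0.09; adjusted p = 0.0178 by edgeR). For Cks2 the levels were 75.8, 63.7 and 66.8 CPM in control OPCs, 45.5 and 46.5 CPM with guide 1 and 65.8, 66.4 and 64.4 CPM with guide 2 (-0.58 ± 0.08; edgeR, adjusted p = 0.00966). All 3 genes had guide 1 libraries under every other library, though Bub1b did not pass once corrected for transcript length (-0.50; edgeR, adjusted p = 0.101). Kif4, a motor on chromosome arms, stood at 119, 104 and 112 CPM in control OPCs, 79.5 and 74.9 CPM with guide 1 and 107, 109 and 102 CPM with guide 2 (-0.54 ± 0.07; edgeR, adjusted p = 0.00935). Kif2c, a motor that shortens microtubules at the centromere, stood at 100.0, 83.6 and 85.4 CPM in control OPCs, 63.1 and 62.6 CPM with guide 1 and 103, 95.9 and 87.4 CPM with guide 2 (-0.51 ± 0.10; edgeR, adjusted p = 0.0324). Ndc80 itself stood at 78.1, 66 and 68 CPM in control OPCs, 48.8 and 49.8 CPM with guide 1 and 68.8, 72 and 64.3 CPM with guide 2 (-0.52 ± 0.09; edgeR, adjusted p = 0.0195). The guide 1 libraries of these 3 again formed the low end, with no overlap. Ect2, an exchange factor that acts at the cleavage plane, stood at 132, 116 and 117 CPM in control OPCs, 87.4 and 82.6 CPM with guide 1 and 116, 122 and 108 CPM with guide 2 (-0.52 ± 0.08; edgeR, adjusted p = 0.0159). Prc1 stood at 259, 226 and 238 CPM in control OPCs, 167 and 169 CPM with guide 1 and 234, 250.4 and 236 CPM with guide 2 (-0.52 ± 0.07; edgeR, adjusted p = 0.00718). Here too the guide 1 libraries lay lowest, and those of guide 2 overlapped the controls.

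The remaining abundant members were tested as well. Top2a stood at 987, 892 and 887 CPM in control OPCs, 712 and 707 CPM with guide 1 and 906, 957 and 822 CPM with guide 2 and fell with guide 1 (-0.38 ± 0.07; edgeR, adjusted p = 0.0335). Tpx2 stood at 300.5, 271 and 266 CPM in control OPCs, 203 and 208 CPM with guide 1 and 273, 286 and 254 CPM with guide 2 and also fell (-0.44 ± 0.07; edgeR, adjusted p = 0.0192). Cdk1 stood at 215, 179 and 148 CPM in control OPCs, 131 and 131 CPM with guide 1 and 191, 189.7 and 166 CPM with guide 2, and its change of -0.46 ± 0.14 did not pass (edgeR, adjusted p = 0.135). The control libraries of Cdk1 were themselves spread, with library A the highest and library C the lowest, though both guide 1 libraries lay under all of them. Cenpa (-0.44 ± 0.10; edgeR, adjusted p = 0.0618) and Pbk (-0.32 ± 0.09; edgeR, adjusted p = 0.124) did not pass either. Their levels with guide 1 were 69.5 and 67.2 CPM and 99.2 and 101 CPM, against 107, 90.3 and 81.8 CPM and 141, 121 and 113 CPM in controls, with no overlap. The proliferation marker Mki67 stood at 873, 919 and 1107 CPM in control OPCs, 759 and 716 CPM with guide 1 and 902, 999 and 841 CPM with guide 2 (-0.39 ± 0.11; edgeR, adjusted p = 0.105), and its guide 1 libraries lay under the controls without passing the test. Of the cyclins, Ccna2, the cyclin of S phase and G2, fell (-0.47 ± 0.09; edgeR, adjusted p = 0.0379), while the B cyclins, partners of Cdk1 in mitosis, did not pass (Ccnb1 -0.29 ± 0.25, Ccnb2 -0.29 ± 0.11). Pttg1 was uneven in every group, at 13.4, 23.2 and 16.5 CPM in control OPCs, 23.2 and 9.82 CPM with guide 1 and 21.9, 11.8 and 7.93 CPM with guide 2.

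With guide 2, compared with the same 3 control libraries, no member was called in OPCs. None of the 38 members passed by edgeR, against 0.719% of all genes that fell and 1.33% that rose. DESeq2 called 0 members, against 493 over all genes. Of the members 3 had an unadjusted p under 0.05, against 1756 of all 13358 genes. The median log2 change was -0.01. All 3 guide 2 libraries lay below all controls in 2 members and above them in 1, against 8.53% and 10.2% of all genes. The 3 with an unadjusted p under 0.05 were Ttk (-0.48 ± 0.15), Kif15, a motor that helps keep the spindle bipolar (-0.23 ± 0.08), and Nuf2, a subunit of the Ndc80 complex (0.25 ± 0.08). The change with guide 2 was -0.01 ± 0.07 (SE) for Aurka, -0.04 ± 0.06 for Top2a, -0.07 ± 0.07 for Cks2 and -0.08 ± 0.09 for Mki67. A missed threshold does not show that the levels were equal. Sox6 itself overlapped between the OPCs of both guides in CPM, while in TPM it stood at 31.7 and 26.8 with guide 1 and 18, 21.3 and 23.6 with guide 2, with no overlap.

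Set directly against each other in OPCs, guide 2 exceeded guide 1 in the members by a median log2 of 0.43, and all 3 guide 2 libraries lay above both guide 1 libraries in 31 of 38 members, as they did in 17.1% of all genes. They lay below both in 2 members, Ttk and Nusap1, as in 15.7% of all genes. An unadjusted p under 0.05 was reached by 32 members, against 1106 of the 13358 genes, and among these Ttk was lower with guide 2 (-0.64 ± 0.16). After adjustment over all genes edgeR called none (0%), and DESeq2 called 23 members, against 106 over all genes. The smallest adjusted p among the members by edgeR was 0.116, shared by 8 members, among them Prc1 (difference 0.51 ± 0.07), Aurka (0.61 ± 0.08) and Plk1 (0.67 ± 0.10). Without control library A the edgeR count of members was 10, against 26 over all genes. The mean of both guides against control called 7 members lower and none higher, against 1.63% and 1.95% of all genes. That count was 3 without control library A, 4 without control library B, 2 without guide 2 library B, and 0 without guide 2 library A or guide 2 library C. Calls over all genes fell as well, from 479 in the main test to 185 without control library B. Without guide 2 library A, B and C they were 248, 274 and 277.

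**Figure D3:**
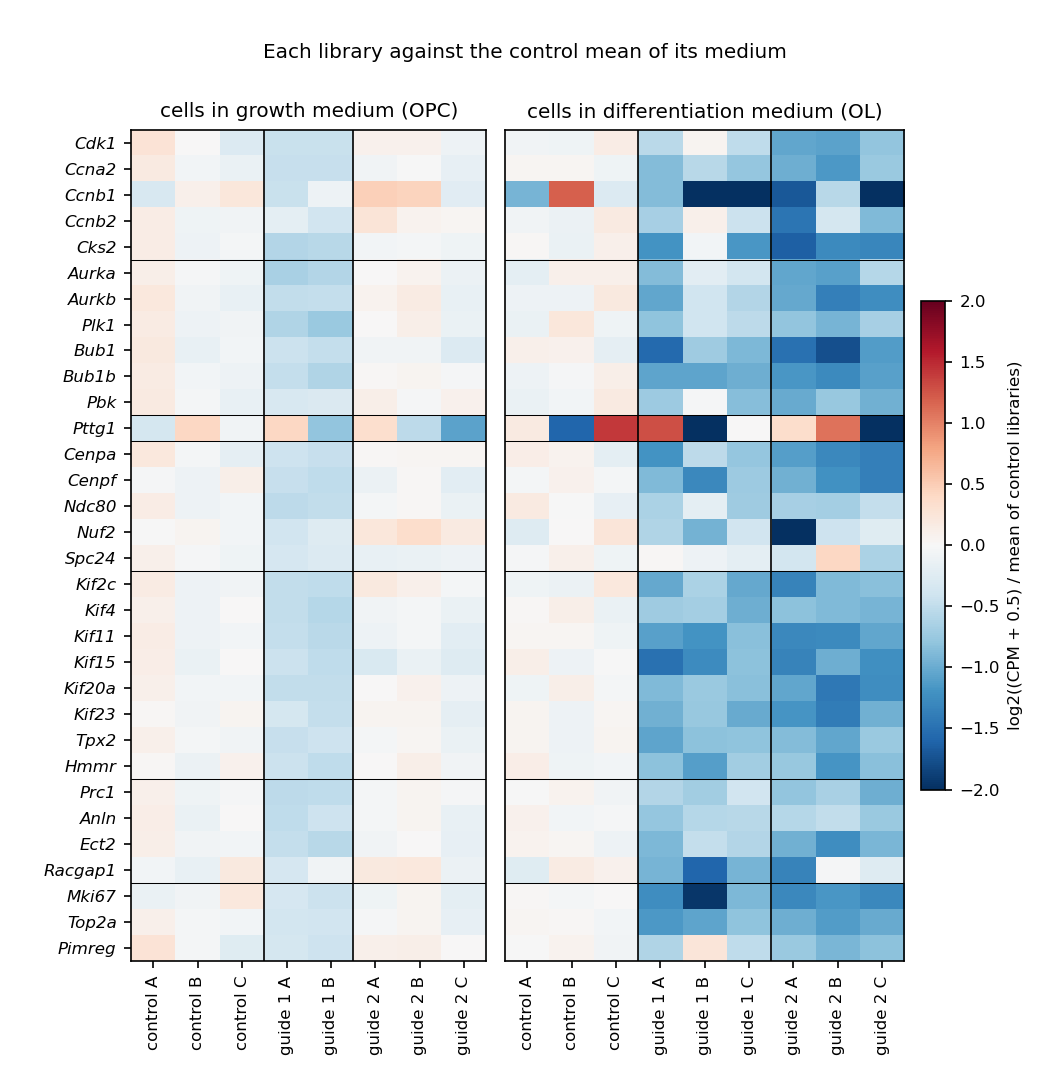
Each library of the SOX6 experiment (columns) against the mean of the 3 control libraries of its medium, as log2 of CPM + 0.5, for the 32 members with a mean of at least 10 TPM in control OPCs (rows, by role). Guide 1 OPCs are blue in most rows while guide 2 OPCs are near white, and the OLs of both guides are blue; Pttg1 varies from library to library in every group.

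In OLs many members were lower with either guide. With guide 1, 15 of 36 members fell and none rose (edgeR's quasi-likelihood test, Benjamini-Hochberg adjustment), against 2.53% of all 13447 genes that fell and 2.39% that rose, with a median log2 change of -0.78. With guide 2, 22 of 36 fell and none rose, against 2.13% of all genes that fell and 2.31% that rose, with a median of -0.98. The mean of both guides called 22 members lower and none higher, against 3.37% and 3.13% of all genes. All 3 guide 1 libraries lay below all 3 controls in 25 members (13.4% of all genes), and all 3 guide 2 libraries in 28 (17.1% of all genes). These comparisons share their 3 control libraries. The kinesins and spindle proteins had 8 of 9 members that fell with each guide. Of the kinases, 1 of 7 fell with guide 1 and 4 of 7 with guide 2, and of the Cdk1 group 1 of 5 and 3 of 5. For cytokinesis the counts were 2 and 3 of 4, and for centromere and kinetochore 1 and 2 of 7. The summed level of all members was 58.3% of control OLs with guide 1 and 53.0% with guide 2. 

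In the same OL cultures Mobp rose by 5.52 ± 0.19 with guide 1 and 5.67 ± 0.19 with guide 2 on the log2 scale, and Cldn11 rose by 1.07 ± 0.19 and 1.19 ± 0.19. Mbp and Cnp rose with guide 2 (0.49 ± 0.08 and 0.29 ± 0.07) and did not pass with guide 1 (0.30 ± 0.08 and 0.13 ± 0.07). Mag passed with neither guide (-0.14 ± 0.11 and -0.47 ± 0.11), and Mog was under the filter. Of 7 OPC markers 3 fell with guide 1 and 2 with guide 2, against 2.53% and 2.13% of all genes. Their sum lay between 3641 and 3817 TPM in control OLs, between 2744 and 3505 with guide 1 and between 3423 and 3606 with guide 2. In summed CPM the group means were 10761, 10629 and 11440 in the same order. Summed astrocyte markers lay between 3905 and 4331 TPM in control OLs, between 4209.7 and 4822 with guide 1 and between 4791 and 5220.1 with guide 2, and 0 of 7 passed singly with either guide. Summed neuron markers lay between 66.6 and 68.9 TPM, between 45 and 49.2 and between 49.3 and 52.8 in the same order, below the controls with both guides, and of 5 singly 1 fell with guide 1 and 0 passed with guide 2. The part of these markers in the results was not tested.

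The counts in OLs moved with the libraries kept. For guide 1 the count was 5 when control A was left out, 6 for control B and 5 for control C, and it was 9 when guide 1 library A and 25 when guide 1 library B was left out. For guide 2 it was 9 when control A was left out, 9 for control B and 12 for control C, and 13, 13 and 12 when 1 of its own libraries A, B and C in that order was left out. For the mean of both guides it was 12 when control A was left out. Calls over all genes moved as well. With guide 1 they were 661 in the main test and 275, 263 and 256 without control A, B and C. With guide 2 they were 597 in the main test and 218, 212 and 231 without control A, B and C. Without guide 2 library A, B and C they were 240, 313 and 266. For the mean of both guides they were 874 in the main test and 371 without control A. Correcting each gene for its estimated transcript length in each library left 6 members called with guide 1 and 10 with guide 2. Over all genes it left 431 and 328. Library B of guide 1 stood apart in its relation to transcript length: the rank correlation of its ratio to the mean of its group with length was -0.40, against 0.31 and 0.36 in libraries A and C. Without it, guide 1 called 1580 of all genes in place of 661 and guide 2 called 2147 in place of 597. Its part in the results was not tested beyond the values given. In OPCs the same correlation was -0.24, -0.02 and 0.23 in control libraries A, B and C, and the part of that spread was not tested either.

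Mki67 had the largest fall with guide 1 among those that passed, at 132, 127 and 131 CPM in control OLs, 54.9, 33.5 and 69.2 CPM with guide 1 and 53, 58 and 52.9 CPM with guide 2. Its change was -1.31 ± 0.22 with guide 1 (SE; edgeR, adjusted p = 0.0105) and -1.25 ± 0.22 with guide 2 (edgeR, adjusted p = 0.0132). No targeted library reached the lowest control. Top2a stood at 148, 147 and 139 CPM in control OLs, 64.6, 69 and 82.5 CPM with guide 1 and 73, 66.2 and 71.2 CPM with guide 2, with changes of -1.0 ± 0.10 and -1.04 ± 0.10 (edgeR, adjusted p = 0.000989 and 0.00104). With the length correction the guide 1 change of Top2a was -0.63 and did not pass (edgeR, adjusted p = 0.106).

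Kif11, the motor that pushes spindle poles apart, stood at 35.1, 35.3 and 32.2 CPM in control OLs, 15.8, 14.7 and 19 CPM with guide 1 and 13.7, 13.8 and 16.3 CPM with guide 2 (-1.05 ± 0.13 and -1.23 ± 0.13; edgeR, adjusted p = 0.00285 and 0.00153). Bub1b stood at 18.6, 19.7 and 21.6 CPM in control OLs, 9.38, 9.31 and 9.85 CPM with guide 1 and 8.62, 7.94 and 9.17 CPM with guide 2 (-1.07 ± 0.13 and -1.22 ± 0.13; edgeR, adjusted p = 0.00275 and 0.00153). In both genes the targeted libraries of either guide all lay under the lowest control. Kif15 stood at 19.2, 16.4 and 17.5 CPM in control OLs, 5.98, 7.12 and 9.77 CPM with guide 1 and 6.65, 8.74 and 7.25 CPM with guide 2 (-1.22 ± 0.21 and -1.23 ± 0.21), but with the length correction these changes were -0.60 and -0.09, and neither passed (edgeR, adjusted p = 0.421 and 0.964). Kif23 stood at 12.5, 11.2 and 12.4 CPM in control OLs, 5.92, 6.92 and 5.72 CPM with guide 1 and 5.02, 4.23 and 5.92 CPM with guide 2 (-0.96 ± 0.18 and -1.25 ± 0.19; edgeR, adjusted p = 0.0206 and 0.0073). Kif2c stood at 13.2, 13 and 16.4 CPM in control OLs, 6.66, 8.98 and 6.72 CPM with guide 1 and 5.29, 7.43 and 7.66 CPM with guide 2 (-0.93 ± 0.21 and -1.06 ± 0.21; edgeR, adjusted p = 0.0429 and 0.0261). The motors had no overlap between targeted and control OLs. Tpx2 stood at 59, 52.8 and 58.8 CPM in control OLs, 27, 32 and 32.1 CPM with guide 1 and 30.8, 27.3 and 33.6 CPM with guide 2 (-0.91 ± 0.12 and -0.90 ± 0.12; edgeR, adjusted p = 0.00307 and 0.00357). Hmmr, a spindle protein that binds hyaluronan, stood at 20.2, 17.3 and 17.6 CPM in control OLs, 10.1, 8.25 and 11.1 CPM with guide 1 and 10.6, 7.77 and 10.0 CPM with guide 2 (-0.90 ± 0.18 and -0.96 ± 0.18; edgeR, adjusted p = 0.0237 and 0.019). Cenpf, a large kinetochore protein, stood at 37.7, 41.3 and 37.6 CPM in control OLs, 20.8, 15.6 and 23.2 CPM with guide 1 and 19.7, 16.5 and 14.7 CPM with guide 2 (-0.97 ± 0.17 and -1.20 ± 0.17; edgeR, adjusted p = 0.0127 and 0.00586). These 3 had all targeted libraries below all controls. With the length correction the guide 1 changes of Cenpf (-0.97), Kif23 (-0.82), Kif2c (-0.98) and Hmmr (-0.92) did not pass (edgeR, adjusted p = 0.153, 0.324, 0.0544 and 0.0674), nor did the guide 2 change of Kif23 (-1.57; edgeR, adjusted p = 0.0693).

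In OLs 7 members passed with guide 2 and not with guide 1, while guide 2 minus guide 1 called no member. Bub1, a checkpoint kinase, stood at 14.9, 14.7 and 12.2 CPM in control OLs, 4.38, 8.25 and 7.25 CPM with guide 1 and 4.64, 3.77 and 6.09 CPM with guide 2, with a guide 2 change of -1.53 ± 0.28 (edgeR, adjusted p = 0.0161) and a guide 1 change of -1.07 ± 0.27 (edgeR, adjusted p = 0.0628). Cks2 stood at 10.7, 9.55 and 11.4 CPM in control OLs, 4.32, 10.1 and 4.43 CPM with guide 1 and 3.05, 4.06 and 3.95 CPM with guide 2, where guide 1 library B lay inside the control range and the other 5 targeted libraries below it (-1.51 ± 0.34 with guide 2; edgeR, adjusted p = 0.0404). Cenpa stood at 17.3, 16.5 and 13.6 CPM in control OLs, 6.60, 10.8 and 9.01 CPM with guide 1 and 7.09, 6.12 and 5.80 CPM with guide 2 (-1.32 ± 0.21 with guide 2; edgeR, adjusted p = 0.00992). Aurkb stood at 12.5, 12.4 and 15.5 CPM in control OLs, 6.23, 9.98 and 8.70 CPM with guide 1 and 6.33, 4.86 and 5.40 CPM with guide 2 (-1.28 ± 0.22 with guide 2; edgeR, adjusted p = 0.0124). In these genes guide 1 library B was the highest of its group. With the length correction the guide 2 changes were -0.51 for Bub1, -1.51 for Cks2 and -0.91 for Cenpa, and none of the 3 passed (edgeR, adjusted p = 0.605, 0.0619 and 0.23). Kif20a, a motor of the central spindle, stood at 22.9, 26.5 and 23.8 CPM in control OLs, 13, 14.3 and 13.4 CPM with guide 1 and 11.6, 8.74 and 10.0 CPM with guide 2 and fell with both guides (-0.85 ± 0.14 and -1.27 ± 0.14; edgeR, adjusted p = 0.0104 and 0.00167). Cdk1 stood at 18.8, 18.5 and 21.9 CPM in control OLs, 13.3, 20.6 and 13.7 CPM with guide 1 and 9.33, 9.14 and 11.1 CPM with guide 2, and it fell with guide 2 (-1.0 ± 0.20; edgeR, adjusted p = 0.0233) but not past the threshold with guide 1 (-0.32 ± 0.19; edgeR, adjusted p = 0.422), where library B again lay inside the control range. Prc1 stood at 45.9, 48.5 and 44 CPM in control OLs, 30.4, 28.4 and 35.3 CPM with guide 1 and 26.4, 29.2 and 23.3 CPM with guide 2 and fell with both guides (-0.56 ± 0.12 and -0.81 ± 0.12; edgeR, adjusted p = 0.0346 and 0.00737). In the authors' deposited values Prc1 passed with neither guide. Its log2 of control over targeted was -0.0028 with guide 1 and 0.59 with guide 2 there (DESeq2, adjusted p = 0.997 and 0.261). Pbk stood at 21.1, 22.4 and 26.4 CPM in control OLs, 13.8, 22.7 and 12.7 CPM with guide 1 and 11.3, 13.5 and 11.6 CPM with guide 2 and did not pass with either guide (-0.50 ± 0.22 and -0.94 ± 0.22), although every guide 2 library lay below the controls.

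The 14 members tested in OLs that passed with neither guide were Ccnb1, Ccnb2, Aurka, Ttk, Pbk, Pttg1, Ndc80, Nuf2, Spc24, Spc25, Birc5, Nusap1, Racgap1 and Pimreg. Spc24 stood at 26.9, 29.3 and 25.8 CPM in control OLs, 27.8, 25.3 and 23.7 CPM with guide 1 and 21.1, 36.4 and 17.3 CPM with guide 2, with changes of -0.09 ± 0.24 and -0.13 ± 0.24 and overlapping groups. Pttg1 ran from 0.058 to 8.52 CPM over the 9 OL libraries, and Ccnb1 from 0.0665 to 5.22 CPM. Ttk, Spc25, Nusap1 and Birc5 reached at most 6.61 CPM in the OL libraries. Racgap1, the partner of Kif23 at the central spindle, stood at 16.5, 22.1 and 21 CPM in control OLs, 10.1, 6.25 and 10.1 CPM with guide 1 and 7.53, 19.4 and 16.4 CPM with guide 2 (-1.17 ± 0.34 and -0.46 ± 0.34), where the guide 1 libraries lay below all controls and those of guide 2 overlapped them. Guide 2 minus guide 1 in OLs had a median of -0.16 over the members, with 0 called by edgeR (0% of all genes). DESeq2 called 0 members, against 14 over all genes, and 6 members had an unadjusted p under 0.05, against 773 of all 13447 genes.

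**Figure D4:**
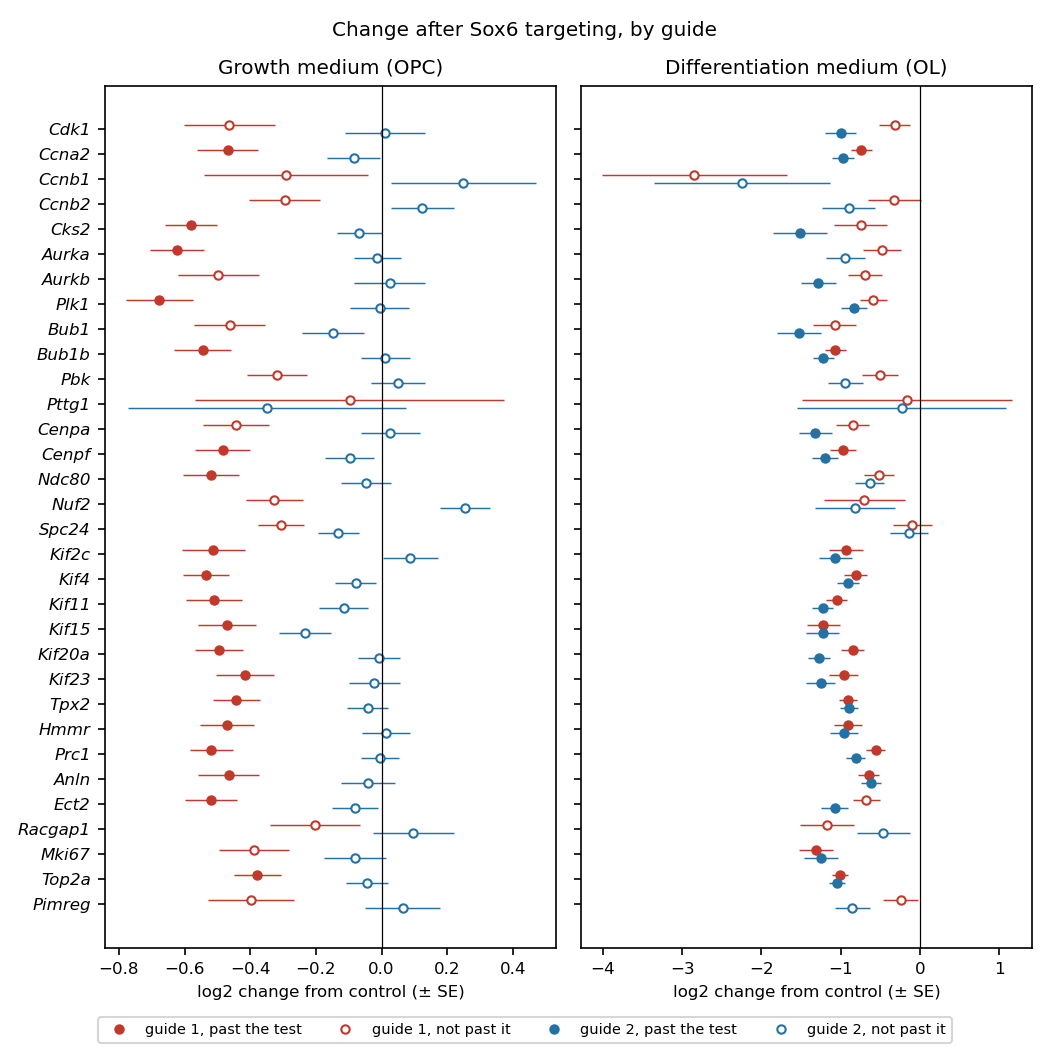
Log2 change from control (horizontal axis, bars are the SE) of 32 members in OPCs and in OLs, for guide 1 (red) and guide 2 (blue); filled points passed the edgeR test. In OPCs the guide 1 points lie between -0.68 and -0.20 except Pttg1 and the guide 2 points between -0.35 and 0.25, and in OLs both guides lie below 0.

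The response to guide 2 differed between the media. In the fit of all 17 libraries, the change with guide 2 in OLs minus that in OPCs was below 0 for 34 of 38 members, and 19 passed (edgeR's quasi-likelihood test, Benjamini-Hochberg adjustment), against 0.648% of all 14352 genes that passed below 0 and 0.53% above it. The median difference was -0.98. Kif20a (-1.25 ± 0.14; edgeR, adjusted p = 0.000327), Bub1b (-1.21 ± 0.13; adjusted p = 0.000212 by edgeR) and Top2a (-0.98 ± 0.13; edgeR, adjusted p = 0.00115) were among them. All 19 were also among the 22 that fell with guide 2 in OLs, which share the OL libraries. With the length correction 9 members passed, against 77 over all genes in place of 169. For guide 1 the same difference had a median of -0.28 and no member passed by edgeR, against 0.286% of all genes below 0 and 0.362% above it. An unadjusted p under 0.05 was reached by 12 members, against 1712 of all 14352 genes. DESeq2 called 4 members, against 367 over all genes. Without guide 1 OL library B the edgeR count of members was 2 and without library C it was 3. Over all genes these counts were 340 and 163, in place of 93. Top2a (-0.59 ± 0.13; edgeR, adjusted p = 0.0608) had the smallest adjusted p, and the differences of Plk1 (0.12 ± 0.19) and Aurka (0.18 ± 0.25) were above 0. With guide 1, 14 members passed in both media, which is 70% of the 20 that fell in OPCs and 93.3% of the 15 that fell in OLs. Over all genes 82 fell in both, which is 41.8% of the 196 that fell in OPCs and 24.1% of the 340 that fell in OLs.

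Other genes of the cell cycle were tested from lists of names. For the counts that follow, 1.47% of all genes fell with guide 1 and 0.719% with guide 2 in OPCs. In OLs the shares were 2.53% and 2.13%. From control OPCs to control OLs 21.6% of all genes fell, and 33.8% fell in sorted cells. Of 56 further mitosis genes tested in OPCs, 21 fell with guide 1 and none with guide 2, with medians of -0.47 and -0.06. In OLs 13 of 54 fell with guide 1 and 21 of 54 with guide 2, with medians of -0.57 and -0.79. From control OPCs to control OLs 51 of 56 fell (median -2.39), and 54 of 55 fell in sorted cells (median -3.70). Kif18b, a kinesin of the spindle, was among the largest in each guide contrast that had calls (-0.60 ± 0.07 in OPCs with guide 1, -1.59 ± 0.24 and -1.81 ± 0.25 in OLs with guides 1 and 2). Of 30 DNA replication genes, 8 fell in OPCs with guide 1 and none with guide 2. In OLs 6 of 29 fell with each guide, with medians of -0.25 and -0.52. Tk1, thymidine kinase, led in OPCs (-0.55 ± 0.11 with guide 1), and Mcm5, a subunit of the replicative helicase, in OLs with guide 2 (-1.07 ± 0.12). The replication genes fell with differentiation too, 28 of 30 in control cultures (median -2.31) and 28 of 29 in sorted cells (median -2.91).

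Of 22 regulators of mitotic transcription, 2 fell in each guide contrast that had calls, with medians between -0.15 and -0.22. Over all genes 1.47% fell in OPCs with guide 1, and 2.53% and 2.13% in OLs with guides 1 and 2. Fzr1, the activator of the anaphase promoting complex in G1, and the Cdk inhibitor Cdkn1a fell in OPCs with guide 1 (-0.42 ± 0.08 and -0.38 ± 0.07). Mybl2, the B-Myb factor that joins MuvB in S phase, fell in OLs with both guides (-0.98 ± 0.20 and -1.09 ± 0.19). With differentiation 14 regulators fell and 2 rose in control cultures, against 21.6% and 21.4% of all genes, and Foxm1, the forkhead factor of the same genes, was among those that fell (-2.40 ± 0.33). In sorted cells 11 fell and 2 rose, against 33.8% and 26.3% of all genes, and Cdkn1c, another Cdk inhibitor, rose by 3.10 ± 0.16 on the log2(TPM + 1) scale.

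Values in the authors' deposited table of each guide against control, made with DESeq2, can be set beside these counts. For OPCs the authors' deposited tables list 38 members. At an adjusted p under 0.05 by DESeq2 in the authors' deposited tables, 23 of them were lower with guide 1 and 0 with guide 2. With guide 1, Cdk1, Aurkb, Bub1, Cenpa, Spc24 and Mki67 passed there and not here, and Cenpf, Kif15 and Kif23 only here. In OLs the authors' deposited tables list 34 members, of which 13 were lower with guide 1 and 18 with guide 2, and none was higher in either medium. With guide 1 in OLs, Bub1 and Racgap1 passed only there, and Kif4, Kif15, Kif23 and Prc1 only here. With guide 2 in OLs, Aurka and Pimreg passed only there, and Bub1, Cenpa, Cenpf, Kif15, Prc1 and Anln only here. Sizes differed too, not only calls. In OLs the authors' log2 of control over targeted for Kif15 was 0.61 with guide 1 and 0.09 with guide 2. As targeted over control it was -1.22 and -1.23 here, and -0.60 and -0.09 with the length correction. Racgap1 with guide 1 had the larger size there, 1.67 against -1.17 here. The cause was not tested. The share over all genes of the authors' deposited tables is not given here.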

How the data were processed

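Poly(A) libraries were made with a kit that does not mark strand, per the labels' protocols. The submitters' processing notes name Salmon 0.14.1, DESeq2 and mm10. Estimated counts, deposited by the authors for the 17 libraries with guides, were rounded here, and the authors also gave TPM for every library. The authors further deposited log2 fold changes (control over targeted) and adjusted p-values. Genes passed filterByExpr (minimum count 10, minimum total 15), libraries were scaled by TMM, and edgeR 4.0.16 in R 4.3.3 gave two-sided quasi-likelihood F tests adjusted by Benjamini-Hochberg across every gene in the fit, at 0.05. Each medium was fitted alone with 1 coefficient per group, and all 17 libraries together for contrasts between media. For the sorted cells limma 3.58.1 was run on log2(TPM + 1), keeping genes that reached 1 TPM in at least 3 of the 6 libraries. Column letters A, B and C name libraries and were not matched to replicate numbers. The scripts were tested on simulated data. Alternatives were other scalings, no filter, DESeq2 1.42.0, 2 length corrections, 1 joint fit, other pseudocounts and leaving out each library. Genes named with values were the leader of each role, the 10 largest called changes per guide contrast, the 3 largest and 3 smallest stage changes, at most 3 of each other list, and members needed to account for all. Genes and lists were chosen with earlier results of these data known. Promoters are from RefSeq. The summed OL marker list is not reported here, and Mbp, Mag, Mog, Cnp, Cldn11 and Mobp were given singly in its place, chosen after values were seen.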

Additional observations from a re-analysis of the deposited data

Results flagged for a closer look

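The response of the mitosis and G2 phase genes to guide 2 differed between the 2 media by a test of the difference itself. Of 38 members tested, 19 passed with a lower log2 change in OLs than in OPCs (edgeR's quasi-likelihood test, interaction contrast over 17 libraries, Benjamini-Hochberg adjustment). Over all 14352 genes, 0.648% passed below 0 and 0.53% above it. The median difference of the members was -0.98, and with the transcript length offset 9 members passed, against 77 over all genes. The cause was not tested. Groups of 2 or 3 libraries are not tested for an outlying value, and every group had 2 or 3.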

How the results depend on the processing

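No paired analysis was possible because the columns carry letters and no replicate numbers of the labels. For the called members followed through the alternatives (up to 10 in each of guide 1 in OPCs, the mean of both guides in OPCs, each guide and the mean in OLs, the guide 2 difference between media and both stage comparisons), no change reversed its sign. The median of guide 2 in OPCs ran from -0.06 to 0.02, and members that were not called were not followed singly. The counts of members called were within 1.5 times for the sorted cells (33 to 38) and for control OLs against control OPCs (33 to 35), and guide 2 in OPCs and guide 2 minus guide 1 in OLs stayed at 0 in every setting. The transcript length offset gave 6 in place of 15 for guide 1 in OLs, 10 in place of 22 for guide 2, 12 in place of 22 for their mean, 9 in place of 19 for the difference between media with guide 2, and 0 in place of 7 for the mean of both guides in OPCs. For that mean in OPCs no filter gave 14, DESeq2 18, removal of the length trend 12 and the joint fit 1. Guide 2 minus guide 1 in OPCs gave 10 with no filter and 23 with DESeq2, in place of 0. Guide 1 in OPCs gave 9 in place of 20 in the joint fit. The difference between media with guide 1 gave 2 with library totals, 4 with DESeq2 and 1 with the length trend removed, in place of 0. Leaving out 1 library gave 0 to 25 for guide 1 in OPCs, 0 to 10 for the mean of both guides and for guide 2 minus guide 1 there, 5 to 25 for guide 1 and 9 to 26 for guide 2 in OLs, 12 to 26 for their mean, and 0 to 3 for the difference between media with guide 1. Over all genes, guide 1 in OPCs called 372 by the main test, 776 by DESeq2, 573 with the length trend removed, 189 in the joint fit and 167 with the length offset; guide 2 called 273, then 493 by DESeq2, 166 in the joint fit and 110 with the offset. In OLs guide 1 called 661, with 1137, 1181, 1367 and 431 in the same order, and guide 2 called 597, with 999, 1157, 1171 and 328. The mean of both guides called 479 in OPCs (DESeq2 787, joint fit 254, offset 237) and 874 in OLs (DESeq2 1358, trend removed 1556, joint fit 1604, offset 579). Guide 2 minus guide 1 called 0 in each medium, against 106 by DESeq2 and 31 with no filter in OPCs and 14 by DESeq2 in OLs. The difference between media called 93 with guide 1 (DESeq2 367, trend removed 218, offset 43) and 169 with guide 2 (DESeq2 398, trend removed 281, offset 77). The causes were not tested. Where a setting left 1 guide 1 library in OPCs, it was assumed to vary like the other groups. Depth limits the members under about 10 CPM, such as Ccnb1, Pttg1, Ttk, Spc25 and Nusap1 in OLs.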

Other observations

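Some members share sequence with other genes, which an estimate of counts has to divide. Of the 31-base words of their transcripts in GENCODE M21, 31.7% of those of Cks2, 27.8% of Ccnb1, 26.7% of Cdc20, 26.7% of Kif20a and 25.3% of Ube2c also stood in another gene. The letters shared by Kif20a stood in Cdc23, which had a mean estimated count of 2072 in control OPCs against 2411 for Kif20a.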
